A study of Bos taurus with 16 samples.

Results

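The 6 inflammatory cytokine genes TNF, IL1B, CXCL8, IL6, IL10 and IFNG were followed in whole blood of beef steers. They were chosen by Ensembl identifier: ENSBTAG00000025471 (TNF), ENSBTAG00000001321 (IL1B), ENSBTAG00000019716 (CXCL8), ENSBTAG00000014921 (IL6), ENSBTAG00000006685 (IL10) and ENSBTAG00000012529 (IFNG). All 6 were present among the 27607 genes of the deposited tables. The symbols come with this choice, because the reference table used here pairs none of the identifiers with a symbol. Each of 16 crossbred growing steers on the same high-forage ration gave 1 library, made from blood of several collection days composited before RNA extraction. The library kit is meant to deplete ribosomal and globin RNA and is named for human, mouse and rat. How far it did so in these libraries was not analysed here. Residual feed intake (RFI) is the part of feed intake that body weight and gain do not predict, and 8 steers were labelled with a high RFI (tables: HFE columns) and 8 with a low RFI (LFE columns). Steers 1 to 8 are labelled low-RFI and steers 9 to 16 high-RFI, and the sources used here give no age, pen or breed for a steer.

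Cytokines are small proteins through which immune cells signal to each other. TNF and interleukin 1 beta (IL1B) are early inflammatory cytokines of activated monocytes and macrophages, and they induce further cytokines in the cells they reach. CXCL8 (interleukin 8) draws neutrophils to a site of inflammation, IL6 drives fever and the acute phase response of the liver, IL10 restrains the production of inflammatory cytokines, and interferon gamma (IFNG), made mainly by T cells and NK cells, activates macrophages. Several of these transcripts are kept low in resting leukocytes and are unstable once made.

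The total count on genes was 8.15 ± 1.09 M in high-RFI steers (SD, n = 8), from 7.08 to 9.98 M, and 8.72 ± 2.23 M in low-RFI steers (SD, n = 8), from 4.80 to 12.2 M. The lowest total belonged to low-RFI steer 4. Read totals listed in the supplement of the study follow the counts of the libraries only when its group names are exchanged, so every direction below is that of the sample labels and would turn round under the other names. Markers of blood cell types could not be looked up by symbol and were not analysed here. In whole blood, fewer cells of a type and less RNA per cell cannot be told apart.

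Which of the cytokine genes were measurable was read from the raw counts. IL1B, TNF, CXCL8 and IL10 had counts in all 16 steers and passed the abundance filter of edgeR (filterByExpr, built on a minimum of 10 counts), as 13265 genes did. Summed over all steers there were 13237 raw counts of IL1B, 2699 of TNF, 2025 of CXCL8 and 180 of IL10. IL6 and IFNG did not pass. IL6 had 12 counts over all steers, at most 2 in any steer and none in 6 of them. IFNG had 18 counts, at most 3 in any steer and none in 5. A count of 0 allows up to 3 counts (one-sided 95% limit), which corresponds to an FPKM of up to 0.235 to 0.384 for IL6 and 0.200 to 0.471 for IFNG in the steers at 0, counting error only.

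Levels were compared between genes per length, on the deposited FPKM scale. Mean FPKM was 50.9 ± 27.6 for IL1B (SD, n = 16), 11.03 ± 1.79 for TNF, 7.92 ± 4.94 for CXCL8 and 0.558 ± 0.274 for IL10. IL1B stood at rank 1392 of all 27607 genes by mean FPKM, TNF at 6267, CXCL8 at 7546, IL10 at 14170, IFNG at 16909 and IL6 at 17358. The order was not equally firm between neighbours. IFNG was above IL6 in 8 of 16 steers and below it in 8, so no order is read between them. IL1B was above TNF in 15 of 16 steers, the exception being high-RFI steer 14, and above CXCL8 in all 16. TNF was above CXCL8 in 13 of 16 steers. The ratio of TNF to CXCL8 within a steer had a median of 1.71 and ran from 0.512 to 9.61, and this order was not tested. CXCL8 was above IL10 in all 16 steers, by 2.97-fold at the least and 91.3-fold at the most. The highest of these ratios was that of low-RFI steer 2, which had 3 raw counts of IL10.

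IL1B differed more between animals than between groups. Its normalized count, the raw count divided by the size factor of the library, ran from 218 over a median of 893 to 2022 in high-RFI steers, and from 421 over a median of 723 to 1042 in low-RFI steers. The highest and the lowest steer both carried the high-RFI label, steer 16 with 1715 raw counts and steer 14 with 190, a 9.26-fold range after normalization. All low-RFI steers lay inside that range. Exact Poisson 95% intervals of the raw counts were 1635 to 1798 in steer 16 and 164 to 219 in steer 14, which cover counting error only.

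TNF was the steadiest of the measured cytokine genes. It ran from 135 over a median of 172 to 237 normalized counts in high-RFI steers and from 127 over a median of 163 to 179 in low-RFI steers. The range over all steers was 1.86-fold. The highest TNF count belonged to steer 14, the steer with the lowest IL1B, and the next highest, 187 in high-RFI steer 11, lay close to the top of the other group.

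CXCL8 had a range of 16.6-fold over all steers. Without steer 4 it was 7.52-fold, less than the 9.26-fold of IL1B, which itself was 5.67-fold without steer 14. In high-RFI steers it ran from 39.1 over a median of 108 to 294 normalized counts, and in low-RFI steers from 17.7 over a median of 91.1 to 244. Steer 16 was again the highest. The lowest was low-RFI steer 4, with 11 raw counts (exact Poisson 95% interval 5.49 to 19.7) in the library of lowest depth, and the groups overlapped over nearly the whole range.

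IL10, the restraining cytokine of the set, was low but present in every steer, with 3 to 20 raw counts. Its normalized count ran from 4.60 over a median of 12.1 to 21.2 in high-RFI steers and from 3.37 over a median of 9.52 to 16 in low-RFI steers. Steers 16 and 15, both labelled high-RFI, lay above every steer of the other group, and steers 2 and 4, labelled low-RFI, shared the lowest raw count of 3 (exact Poisson 95% interval 0.619 to 8.77).

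These ranges were set against the variation of all genes. The biological coefficient of variation (BCV) of edgeR is the relative spread between steers of a group that remains after counting error. It was 0.602 for CXCL8 and 0.496 for IL1B, against 0.233 and 0.204 on the fitted trend for genes of the same abundance. By BCV, CXCL8 stood at rank 273 of the 13265 genes tested, counted from the highest, and IL1B at rank 500. Without steer 4 the BCV of CXCL8 was 0.521 (rank 449 of 13356), and without steer 14 that of IL1B was 0.417 (rank 726 of 13388). TNF had a BCV of 0.151, below its trend of 0.219 and near the median of 0.160 over all genes tested. IL10 stood at 0.347 against a trend of 0.302. Counting error alone would give a coefficient of variation of 3.54% for IL1B, 7.87% for TNF, 9.12% for CXCL8 and 30.6% for IL10, where 54.3%, 16.2%, 62.4% and 49.1% were observed over all steers. The observed spread was thus many times the counting error in IL1B and CXCL8, and under 2 times it in IL10. The coefficient of variation of IL1B was 64.4% in high-RFI steers and 30.0% in low-RFI steers, a difference that was not tested.

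**Figure D1:**
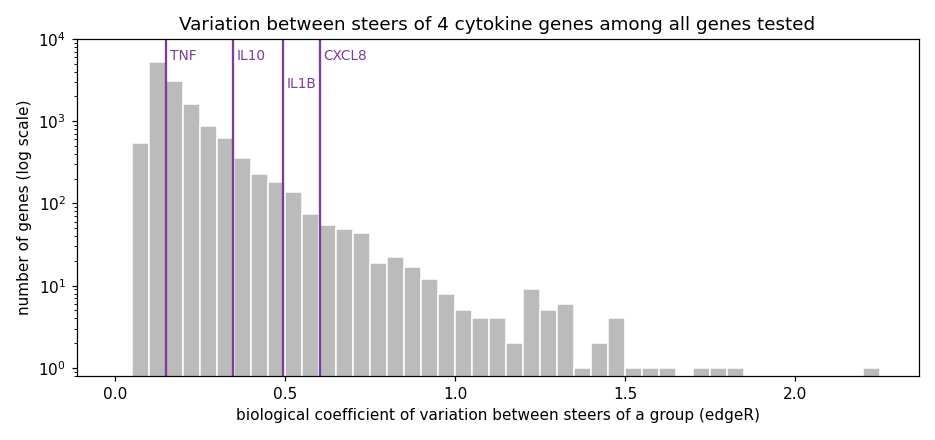
Histogram of the BCV (horizontal axis) of the 13265 genes tested, with the number of genes on a log scale, and a line for each of 4 cytokine genes. TNF (0.151) lies in the bulk of the genes, and IL10 (0.347), IL1B (0.496) and CXCL8 (0.602) lie in the upper tail.

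The study compared high-RFI with low-RFI animals. No difference was called between them for any of the measured cytokine genes. In the quasi-likelihood test of edgeR, 0 of the 4 passed FDR 0.05, where 0% of the 13265 genes tested did, and 0 of the 4 were at an unadjusted p under 0.05, where 5.22% of the genes were (693 genes). DESeq2 called 7 of 21016 genes (0.0333%), none of them a cytokine gene of the set. All 4 log2 fold changes were above 0 and all 4 of their 95% intervals included 0.

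Among the inflammatory cytokines, TNF had 174 ± 31.0 normalized counts in high-RFI steers and 155 ± 19.0 in low-RFI steers (SD, n = 8 each), a log2 fold change of 0.16 (SE 0.11, 95% interval -0.07 to 0.39, adjusted p = 0.984 from edgeR). This was the narrowest interval of the set, and its upper end corresponds to 1.31-fold. IL1B had 914 ± 589 and 709 ± 213 normalized counts (SD, n = 8 each), a log2 fold change of 0.36 (SE 0.36, 95% interval -0.41 to 1.13, adjusted p = 0.999 from edgeR). The difference of its mean log2(normalized count + 1) was 0.12 (two-sided exact permutation p = 0.768) and turned to -0.083 without steer 16, and limma voom with sample quality weights gave a log2 fold change of 0.05. For IL1B a change of up to 2.19-fold was within the interval.

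The chemokine CXCL8 had 135 ± 85.7 normalized counts in high-RFI steers and 109 ± 69.1 in low-RFI steers (SD, n = 8 each), a log2 fold change of 0.30 (SE 0.43, 95% interval -0.62 to 1.22, adjusted p = 0.999 from edgeR). The difference of its mean log2(normalized count + 1) was 0.32, and -0.00146 without steer 4. IL10 had 12.2 ± 6.19 and 9.54 ± 4.33 normalized counts (SD, n = 8 each), a log2 fold change of 0.28 (SE 0.33, 95% interval -0.42 to 0.97, adjusted p = 0.999 from edgeR), which was 0.12 on log2(FPKM + 1), a scale that understates changes of low genes. Exact permutation over the 12870 ways to assign 8 of the steers, two-sided and on the same log2 scale, gave unadjusted p = 0.177 for TNF, 0.551 for CXCL8 and 0.392 for IL10.

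**Figure D2:**
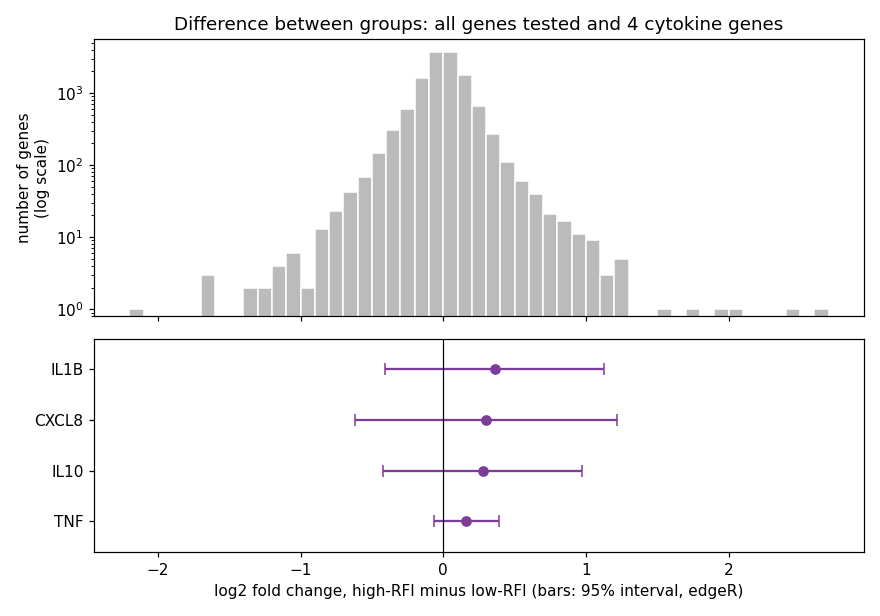
The upper panel is a histogram of the log2 fold change, high-RFI minus low-RFI, over the 13265 genes tested (number of genes on a log scale), and the lower panel gives 4 cytokine genes as points with their 95% intervals from edgeR. All 4 intervals include 0, and the interval of TNF is the narrowest, from -0.07 to 0.39.

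IL6 and IFNG were too low for a fold change. IL6 had 5 counts over the 8 high-RFI steers, of which 4 had none, and 7 over the 8 low-RFI steers, of which 2 had none. IFNG had 1 or 2 counts in each of the 8 high-RFI steers, 11 in all, whereas 5 of the 8 low-RFI steers had none and low-RFI steers 1, 2 and 3 held all 7 counts. With no filter the unadjusted p from edgeR was 0.689 for IL6 and 0.271 for IFNG, and that from DESeq2 was 0.676 and 0.337. The adjusted p from edgeR over 21016 genes was 0.984 for IL6 and 0.855 for IFNG. Of these genes, 0% passed FDR 0.05 in edgeR and 4.88% were at an unadjusted p under 0.05. Exact permutation, two-sided, gave unadjusted p = 0.366 for IL6 and 0.0640 for IFNG. It was run for the cytokine genes alone, so no share over all genes stands beside it. For IFNG the permutation p moved across 0.05 with the pseudocount, to 0.0376 at 0.5, and was 0.0580 on log2(TMM CPM + 0.1). It was between 0.0222 and 0.0306 without low-RFI steer 1, 2 or 3, the only low-RFI steers with a count. Without any other single steer the permutation p for IFNG lay between 0.0625 and 0.110.

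Co-variation asks whether the cytokine genes were high in the same steers. Over the 16 steers, on log2(normalized count + 1), 0 of the 6 pairs among IL1B, TNF, CXCL8 and IL10 held after Benjamini-Hochberg adjustment over the 12 coefficients (permutation tests with 100000 resamples). With all steers the highest r was that of IL1B with CXCL8, with Pearson r = 0.52 (permutation p = 0.0394, adjusted 0.473) and Spearman rho = 0.40 (permutation p = 0.127, adjusted 0.556). Without steers 14 and 16, the farthest from the median of IL1B and both labelled high-RFI, r fell to 0.24 (permutation p = 0.410). They are its lowest and highest steer. Leaving both out also narrows the range of IL1B, which by itself can lower r. Leaving out 1 steer at a time gave r from 0.40 to 0.59. Within groups r was 0.62 in high-RFI steers and 0.46 in low-RFI steers, whereas rho was 0.62 and 0.14 (n = 8 each).

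**Figure D3:**
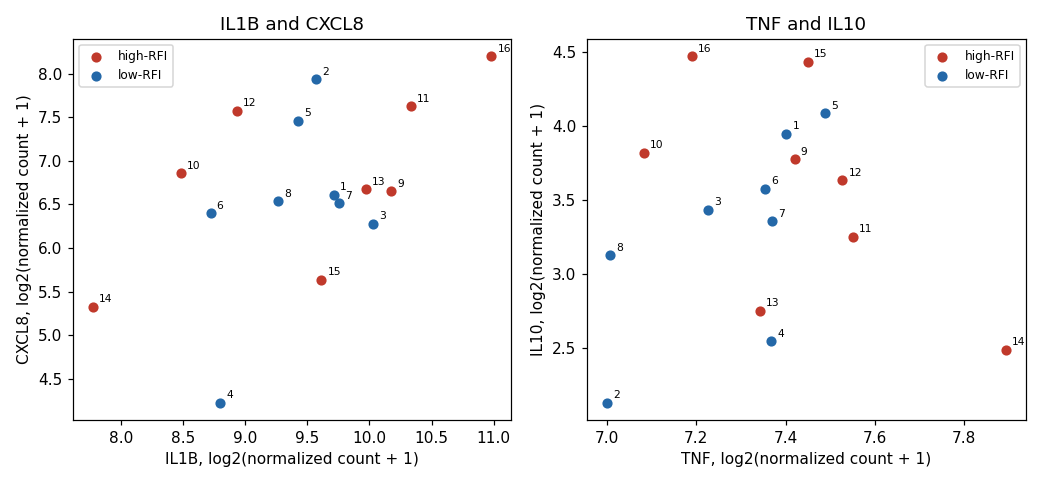
Scatter plots of log2(normalized count + 1), CXCL8 against IL1B on the left and IL10 against TNF on the right, with a numbered point per steer in red (high-RFI) or blue (low-RFI). Steers 14 and 16 lie at opposite ends of IL1B, and the pooled r is 0.52 for IL1B with CXCL8 and 0.00218 for TNF with IL10.

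No relation of TNF with the other inflammatory genes was found. Its Pearson r was -0.30 with IL1B (permutation p = 0.263, adjusted 0.556) and -0.31 with CXCL8 (permutation p = 0.239, adjusted 0.556), and the Spearman rho was -0.04 (permutation p = 0.892, adjusted 0.973) and -0.17 (permutation p = 0.526, adjusted 0.701). Without steers 14 and 2, the farthest from the median of TNF and its highest and lowest steer, r was 0.12 and 0.05. TNF with IL10 gave r = 0.00218 over all steers (permutation p = 0.994, adjusted 0.994) and rho = 0.13 (permutation p = 0.636, adjusted 0.763), and 0.07 without steers 14 and 2. The groups had opposite signs, with r = -0.61 in high-RFI steers and 0.67 in low-RFI steers (n = 8 each), and the difference between the groups was not tested. IL10 had r = 0.37 with IL1B (permutation p = 0.153, adjusted 0.556), rho = 0.26 (permutation p = 0.324, adjusted 0.556), and r = 0.28 with CXCL8 (permutation p = 0.298, adjusted 0.556), rho = 0.23 (permutation p = 0.391, adjusted 0.587). Without the steers farthest from the median of the first gene these r were -0.02 (IL1B, steers 14 and 16) and -0.14 (CXCL8, steers 4 and 16). Here too the steers left out were the lowest and highest of the first gene, so its range was narrowed. For CXCL8 with IL10, leaving out 1 steer moved r from 0.083 without steer 4 to 0.55 without steer 2 (adjusted permutation p = 0.222), where IL1B with CXCL8 stood at 0.54. All pairs with IL10 carry its counting error, a coefficient of variation of 30.6% where 49.1% was observed. This limits how high their coefficients can be, and its part was not tested.

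Read steer by steer, the genes gave contrasting profiles. Steer 16 ranked first of 16 in IL1B, CXCL8 and IL10 and 13th in TNF. Steer 14 ranked first in TNF, last in IL1B and 15th in CXCL8 and IL10. Low-RFI steer 2 ranked 2nd in CXCL8 and last in TNF and IL10. The IL10 ranks rest on few counts, and neighbouring ranks are not separated by them. Steer 16 had 18 raw counts of IL10 and steer 15, next in rank, had 17, while steers 14 and 2 had 4 and 3. High-RFI steer 11 was the only animal in the top 3 of IL1B, TNF and CXCL8 together, and it ranked 11th in IL10. IL1B and CXCL8 shared 2 of their 4 highest steers (11 and 16) and 2 of their 4 lowest (4 and 14). Such overlap was not particular to this pair. TNF and CXCL8 also shared 2 of their 4 highest, and IL10 shared 2 of its 4 lowest with IL1B and 2 with CXCL8.

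**Figure D4:**
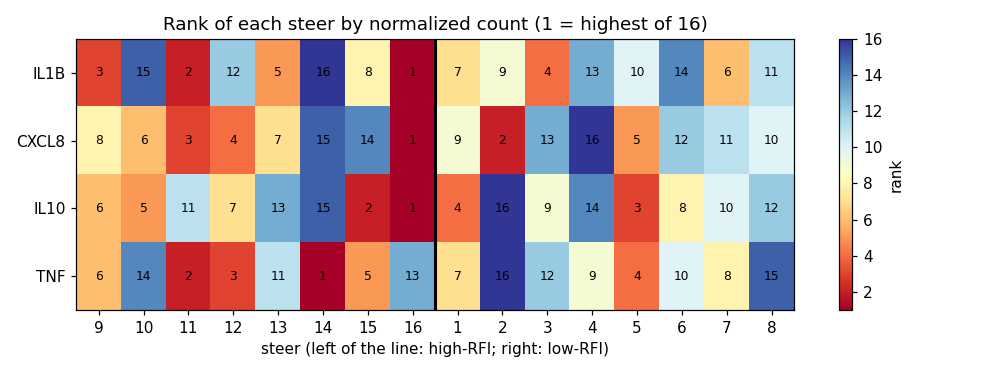
Rank of each steer (columns, high-RFI left of the line and low-RFI right of it) by normalized count of IL1B, CXCL8, IL10 and TNF (rows), where 1 in dark red is the highest and 16 in dark blue the lowest. Steer 16 holds rank 1 in IL1B, CXCL8 and IL10, and steer 14 holds rank 1 in TNF beside ranks 16, 15 and 15. The IL10 ranks rest on 3 to 20 raw counts per steer.

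The levels were also set against library depth. CXCL8 had r = 0.51 with the log2 total count (permutation p = 0.0455, adjusted 0.364 over 8 coefficients) and rho = 0.30 (permutation p = 0.253, adjusted 0.637). Without steers 4 and 6, the farthest in depth, r was 0.29. It was 0.14 without steer 4 alone (permutation p = 0.623) and 0.63 without steer 6 alone, so the unadjusted relation rested on steer 4. For TNF, IL1B and IL10, r was 0.07, 0.16 and 0.36, with adjusted permutation p from 0.637 to 0.798, and rho was 0.14, 0.23 and 0.26. The part of depth in the CXCL8 values was not tested.

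The balance between inflammatory and restraining transcripts was compared as ratios of raw counts within a library (0.5 added to each count), which do not depend on scaling. The median over steers was 76.9 counts of IL1B for each count of IL10, from 26.1 in steer 10 to 193 in steer 2, and 15.03 counts of TNF, from 6.68 in steer 16 to 45.9 in steer 14. The log2 ratio of TNF to IL10 was 3.92 ± 0.93 in high-RFI steers and 4.08 ± 0.58 in low-RFI steers (SD, n = 8 each, two-sided exact permutation p = 0.685, adjusted 0.685 over 3 ratios). That of IL1B to IL10 was 6.02 ± 0.98 and 6.21 ± 0.76 (SD, n = 8 each, exact permutation p = 0.662, adjusted 0.685), and that of CXCL8 to IL1B was -2.72 ± 0.90 and -2.92 ± 0.97 (SD, n = 8 each, exact permutation p = 0.671, adjusted 0.685). All 3 differences were smaller than the spread between steers.

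How closely the cytokine genes followed each other was also placed among all genes. When the 13264 other genes that passed the filter were ordered by their Spearman rho with IL1B over the 16 steers, CXCL8 stood at rank 1711. Among the genes ordered by their rho with TNF, IL10 stood at rank 4062, IL1B at 7377 and CXCL8 at 9930. A rho of at least 0.8 was reached by 49 genes with IL1B (0.37%), 12 with CXCL8 (0.090%), 8 with IL10 (0.060%) and 3 with TNF (0.023%). A rho of -0.8 or lower was reached by 20 genes with CXCL8, 4 with IL10, 3 with IL1B and 1 with TNF. How many genes would reach such values by chance was not estimated. The ranks and numbers for IL10 also carry its counting error. The highest rho between 2 cytokine genes was 0.40. Among genes with a mean normalized count of at least 50, the closest were ENSBTAG00000011204 with CXCL8 (rho = 0.90) and ENSBTAG00000018430 with IL1B (rho = 0.90), and the most opposed were ENSBTAG00000005076 (rho = -0.89) and ENSBTAG00000009194 (rho = -0.88), both with CXCL8. These values are descriptions of the highest and lowest among many genes measured in the same 16 libraries.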

How the data were processed

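Whole-blood RNA-seq of 16 beef steers, 8 labelled high-RFI and 8 low-RFI, was used, with 1 library per steer and the number in the title as steer number. Per the paper and the submitters' processing notes, trimming used Trimmomatic 0.39 and alignment HISAT2 2.2.1 on the assembly ARS-UCD1.2, duplicates were marked, and GenomicAlignments counted reads on genes. Annotation release, strand setting and whether duplicates were counted: not given in the sources used here. Deposited by the authors were raw counts, normalized counts (a signal, the raw count divided by a size factor of 0.622 to 1.46 per steer) and FPKM, which are these normalized counts per gene length.

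Raw counts were tested with edgeR 4.0.16 (TMM, filterByExpr, glmQLFit with robust dispersion, Benjamini-Hochberg adjustment over all genes tested), without covariates. DESeq2 1.42.0 and limma 3.58.1, in R 4.3.3, were alternatives, as were other scaling, no filter, other pseudocounts and leaving out each steer. Single values used exact two-sided permutation tests. Correlations used log2(normalized count + 1) and 100000 permutations, the pseudocount of FPKM was 0.1 or 1 and that of ratios 0.5. P-values judge a group difference or a correlation against the spread between these steers.

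The members and lists were chosen with earlier results of these data known. The genes named are the 6 members and, by identifier, the 2 genes of highest and the 2 of lowest rho to a member (mean normalized count of at least 50). A list of pathway genes and blood cell markers by symbol was not analysed here, since 0 of the identifiers were paired with a symbol. The relation with depth, and the ranges and BCV without each steer, were added after the data were examined. No sequence or coordinate is given, because the reference table is of another assembly.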

Additional observations from a re-analysis of the deposited data

How the results depend on the processing

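The log2 fold changes of TNF, IL1B, CXCL8 and IL10 kept their direction and stayed short of FDR 0.05 under all alternatives, scaling, filter, test, unit and each left-out steer included. IL6 and IFNG also stayed short of it wherever fitted (voom leaves both out), and at their counts no direction is read. Genes past FDR 0.05 numbered 0 in edgeR, 7 in DESeq2 and 13 in limma voom (sample quality weights), and in edgeR from 0 to 25 without 1 steer, above 0 without steer 14 (25) and steer 16 (2). The cause was not tested. With all 16 steers, the log2 fold change lay at 0.14 to 0.16 for TNF, 0.05 to 0.37 for IL1B, 0.26 to 0.32 for CXCL8 and 0.12 to 0.30 for IL10, across these settings, and without 1 steer at 0.09 to 0.21, 0.09 to 0.51, 0.05 to 0.57 and 0.13 to 0.41. The IFNG difference of mean log2 values, 0.65, passed an unadjusted 0.05 with a pseudocount of 0.5 (1.02) and ranged from 0.56 to 0.81 without 1 steer. That of IL1B ranged from -0.083 to 0.37 and that of CXCL8 from -0.00146 to 0.54. The log2 ratio differences ranged from -0.39 to 0.0098 for TNF to IL10, from -0.38 to 0.0069 for IL1B to IL10 and from -0.037 to 0.38 for CXCL8 to IL1B. TNF with IL10 had r = -0.0050 on log2(TMM CPM + 0.1), -0.087 on deviations from the group means and -0.27 to 0.33 without 1 steer, with rho from -0.057 to 0.32. TNF with IL1B had r from -0.45 to 0.11 and rho from -0.17 to 0.17. In no setting did a pair pass the adjustment. No paired analysis was possible because the groups share no replicate number. Counts were lowest for IL6 and IFNG, at 0 to 3 per steer, and IL10, at 3 to 20.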
